A study of Mus musculus with 6 samples.

Results

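The genes described here are 10 members of the YAP-TEAD arm of the Hippo pathway, chosen by name among the 46517 genes counted in primary mouse renal tubular epithelial cells (RTECs). They are the coactivators Yap1 and Wwtr1 (which encodes TAZ), the DNA-binding partners Tead1 and Tead4, and the responsive or regulatory genes Ctgf (also called Ccn2), Cyr61 (also called Ccn1), Ankrd1, Amotl2, Lats2 and Ajuba. All 10 were found by symbol, 1 gene each. 3 CTL cultures and 3 cultures given 50 ng/ml TGF-β1 for 24 h were compared. Every culture came from kidneys of wild-type FvB mice, was grown with serum and EGF, and spent 24 h without serum before the treatment period. The sample labels give the mice as 4 to 6 weeks old, whereas the methods of the study describe males of 3 to 5 weeks. The cells were taken from a collagenase digest of kidney passed through a mesh, with no sort described, and no source used here says whether the numbered cultures came from separate mice. P-values therefore measure the spread between these cultures, which may be technical.

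YAP and TAZ are transcriptional coactivators without a DNA-binding domain of their own. When the kinases LATS1 and LATS2 phosphorylate them they are held in the cytoplasm, and when the kinases are quiet they enter the nucleus and act through TEAD factors. The pathway reads cell density, cell shape and matrix stiffness. Its output is usually high in sparse cells on plastic, and Ctgf, Cyr61 and Ankrd1 are its customary readouts. Lats2 and Amotl2 are both targets and inhibitors of YAP, closing a negative feedback loop, whereas the LIM protein Ajuba holds LATS kinases back. Ctgf is also a long-known TGF-β-responsive matricellular gene in fibrosis. Transcript counts do not measure the phosphorylation or the location of YAP and TAZ.

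The TEAD factors bind the letters GGAATG, which were searched for on both strands in the 250 bases before each member's RefSeq start site (GRCm38.p6), since this is the sequence that joins the factors to their targets. 7 of the 10 members had a window, and there was none for Tead1, Tead4 or Ctgf. 6 of these 7 members (Yap1, Wwtr1, Cyr61, Ankrd1, Amotl2 and Ajuba) held GGAATG, against 12.6% of all 32851 windows of this kind. The members were chosen as YAP-TEAD factors and targets, so this contrast is a description and no test. It also sets genes, of which Wwtr1 and Lats2 had 2 windows each, against single windows. The 6 members held 8 matches in all, from 65 to 210 bases before the start, 4 on the strand of the gene and 4 on the opposite strand. The 30 bases around each match are given 5′ to 3′ on the strand that reads GGAATG, with those letters in capitals.
Yap1 chr9:8004720-8004749 (-): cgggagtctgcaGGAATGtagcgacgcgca
Wwtr1 chr3:57576029-57576058 (-): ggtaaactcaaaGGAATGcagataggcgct
Cyr61 chr3:145650071-145650100 (+): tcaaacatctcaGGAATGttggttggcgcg
Ankrd1 chr19:36120037-36120066 (-): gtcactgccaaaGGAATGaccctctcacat
Ankrd1 chr19:36119950-36119979 (-): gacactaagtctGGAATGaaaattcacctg
Amotl2 chr9:102717727-102717756 (-): gctgctatgccaGGAATGtgagagtttcag
Ajuba chr14:54577830-54577859 (+): gaggggcactgtGGAATGtatccatcaacg
Ajuba chr14:54577808-54577837 (+): ttgtttacagttGGAATGcgcggaggggca
The base after the capitals was t in 4 of the 8 matches and the base before them was a in 5. Ankrd1 and Ajuba each held 2 matches. Neither of the 2 windows of Lats2 held one, although at 1 of its 2 starts 1 match reached into the 50 bases after the start. All 250 bases of the Ankrd1 window and 136 of those of the Amotl2 window were covered by exons of longer GENCODE transcripts. The windows of Cyr61, with 1 match, and Ajuba, with 2, held no annotated exon base and are given whole as examples, on the strand of the gene, where the matches read CATTCC in capitals.
Cyr61 chr3:145649986-145650235 (-): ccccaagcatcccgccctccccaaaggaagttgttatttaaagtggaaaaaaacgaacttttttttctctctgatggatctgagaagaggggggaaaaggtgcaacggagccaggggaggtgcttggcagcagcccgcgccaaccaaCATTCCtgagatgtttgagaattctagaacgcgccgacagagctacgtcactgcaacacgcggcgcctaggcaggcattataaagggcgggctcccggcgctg
Ajuba chr14:54577662-54577911 (-): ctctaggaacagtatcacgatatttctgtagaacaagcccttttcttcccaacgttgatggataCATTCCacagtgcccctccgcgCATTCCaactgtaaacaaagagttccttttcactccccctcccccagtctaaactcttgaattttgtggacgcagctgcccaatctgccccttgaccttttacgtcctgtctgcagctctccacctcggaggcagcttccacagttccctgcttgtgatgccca
Other motifs were likewise searched on both strands. The short SMAD element CAGAC was present in the windows of Yap1, Ankrd1 and Ajuba, against 42.2% of all windows, and in Ankrd1 1 of its 2 copies shared 1 base with the TEAD match 123 bases before the start. The SMAD palindrome GTCTAGAC (0.167% of all windows), the AP-1 letters TGANTCA (6.75%) and the serum response element named CArG (1.47%) were not found in the members' windows. These are matches of letters, and binding was not measured.

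Libraries held 28313080 to 34183497 reads on genes. All 6 tubule epithelium markers examined (Epcam, Cdh1, Cdh16, Pax8, Krt8 and Krt18) were above 3 reads in every culture, and the sums of endothelial markers (Pecam1, Cdh5, Kdr, Tek, Emcn and Vwf) and leukocyte markers (Ptprc, Cd68, Adgre1, Cd3e and Itgam) stayed at 28.0 to 81.8 and 75.2 to 186 normalized counts (counts scaled to a common library size). The cultures numbered 2 stood apart in both groups. Their summed tubule markers were 30384 (CTL) and 26577 (TGF-β1), while the other 4 cultures held 53689 to 80832. Their summed fibroblast markers (Pdgfra, Pdgfrb, Dcn, Lum, Col1a1 and Col3a1) were 66981 and 76047, compared with 24152 to 32718. The sums do not hold for every gene. Epcam, Cdh1, Krt8 and Krt18 were lowest, and Pdgfrb, Dcn, Col1a1 and Col3a1 highest, in the culture numbered 2 of each group. Pax8 was instead highest in CTL replicate 2 (6807), and Cdh16 was not lowest there (7935). Pdgfra was lowest in the culture numbered 2 of each group (27.9 and 20.7), and Lum had 30 reads in all. Counts of calls are therefore also given without the cultures numbered 2, and from a fit that takes the replicate number as a block and so compares each treated culture with the control of the same number. The treatment was visible in the TGF-β response genes Skil, Pmepa1 and Smad7, which rose by 0.76, 0.87 and 0.55 on the log2 scale (adjusted p of 0.00379, 0.0105 and 0.014, edgeR). Tgfbi had a log2 fold change of -0.18 (edgeR adjusted p = 0.747) but was scarce, with 130 reads in all.

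No member rose and 2 fell, Tead4 and Lats2, in the edgeR quasi-likelihood test over 15862 genes at an adjusted p under 0.05, when 11.7% of all genes tested passed (5.00% higher and 6.69% lower). Over all genes this was 793 higher and 1061 lower, and 508 and 1467 with scaling by library size only. At an unadjusted p under 0.05, 1 member was higher and 3 were lower, when 2092 of all 15862 genes were higher and 2437 lower. DESeq2 called 1 member higher and 3 lower, when it called 1110 of all genes higher and 1501 lower. With the replicate block, 5 of the 10 members passed, against 34.2% of all genes (15.1% higher and 19.1% lower). Ctgf and Ankrd1 were then higher, and Tead4, Amotl2 and Lats2 were lower. The same 5 members had no overlap between the 3 CTL and the 3 TGF-β1 values, a condition that 35.1% of all tested genes met. The median log2 fold change of the members was 0.0064, and that of all genes was -0.0028. Without the cultures numbered 2, the members called were again Tead4 (adjusted p = 0.0279) and Lats2 (adjusted p = 0.0444), when 14.9% of the genes tested in that fit passed. All 10 members passed the filter on low counts.

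**Figure D1:**
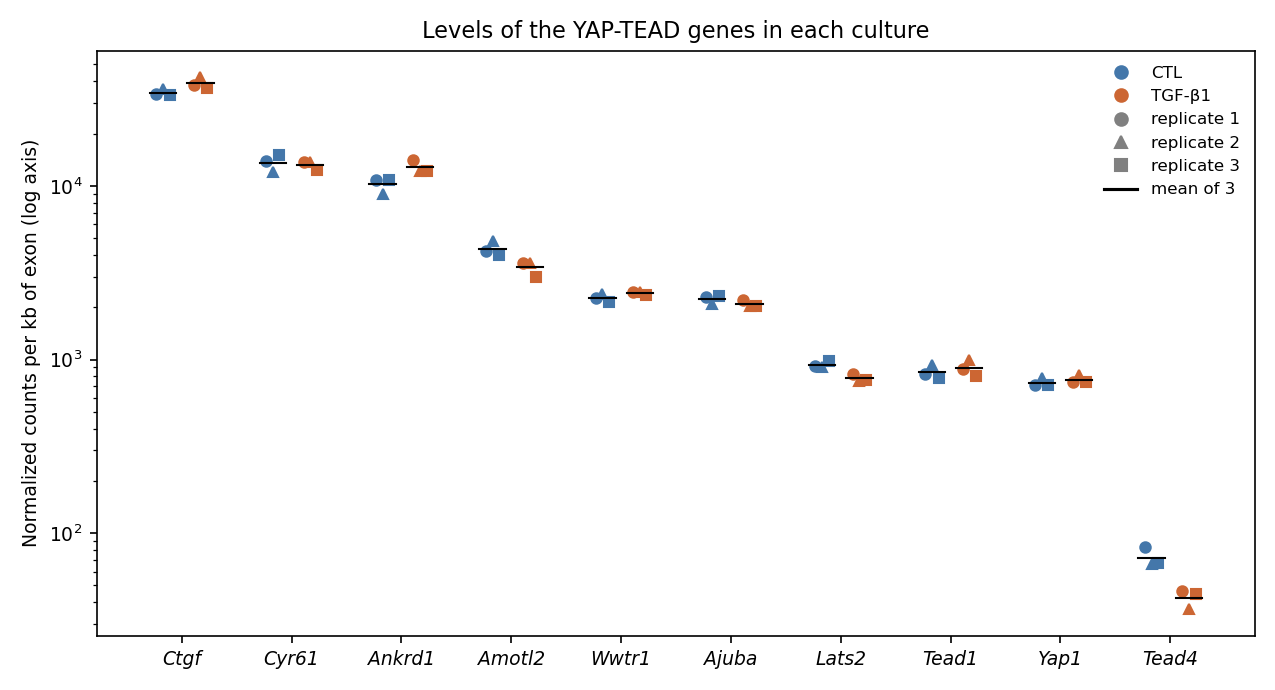
Levels of the 10 YAP-TEAD genes as normalized counts per kb of exon on a log axis, for each CTL and TGF-β1 culture, with marker shapes giving the replicate number and bars the mean of 3. Ctgf stood highest at a mean of 34368 in CTL, and Tead4 stood lowest at 72.2 in CTL and 42.5 in TGF-β1.

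Compared per kb of exon, the 3 readout genes stood above all regulators. In CTL cultures the mean level was 34368 ± 1307 (SD, n = 3) normalized counts per kb for Ctgf, 13613 ± 1540.2 for Cyr61 and 10238 ± 1054 for Ankrd1. Ctgf alone took 0.31 to 0.365% of the reads on genes of a library, and the 10 members together took 0.7 to 0.762%. Amotl2 followed at 4338 ± 403. Wwtr1 (2269 ± 125) and Ajuba (2235 ± 120) came next and their ranges overlapped, and so did those of Lats2 (936 ± 38.4) and Tead1 (845 ± 72.5), ahead of Yap1 (737 ± 40.2). Tead4 was far below, at 72.2 ± 9.35. In the TGF-β1 cultures the means of Ctgf, Cyr61 and Ankrd1 were 38906 ± 2925, 13252 ± 852 and 12808 ± 1066 per kb, so that the ranges of Cyr61 and Ankrd1, apart in CTL, overlapped. The levels of Tead1 (891 ± 94.9), Lats2 (778 ± 37.6) and Yap1 (764 ± 43.2) overlapped in range with their neighbours there, although Tead1 stood above Lats2 in each of the 3 libraries.

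The coactivators did not pass the test. Yap1 (GRCm38, chromosome 9, 7931999 to 8004596, minus strand) had normalized counts of 6636, 7251 and 6582 in CTL and 6842, 7534 and 6839 in TGF-β1 cultures. The groups overlapped, and in each group the culture numbered 2 was the highest. The log2 fold change of Yap1 was 0.05 (95% interval -0.11 to 0.21, edgeR adjusted p = 0.654) and -0.02 with scaling by library size only. 116 bases of the Yap1 exons are shared with another annotated gene on the opposite strand, Gm20416. Wwtr1, chromosome 3, 57455649 to 57575910, minus strand, had 10809.9, 11457 and 10268 in CTL and 11724, 11645 and 11237 in TGF-β1 cultures, again with overlap. Its log2 fold change was 0.09 (95% interval -0.05 to 0.23, adjusted p = 0.377). The upper limit of 0.23 on the log2 scale for Wwtr1 belongs to this fit, and without CTL replicate 2 the limit was 0.28. Within a library, Wwtr1 stood above Yap1 per kb by 1.62 ± 0.03 on the log2 scale in CTL and 1.66 ± 0.07 in TGF-β1 (SD, n = 3; 2-sided exact permutation p = 0.6).

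Of the DNA-binding partners, the abundant Tead1 did not pass and the scarce Tead4 fell. Tead1 (chromosome 7, 112679318 to 112906807, plus strand) had 11154, 12574 and 10685 normalized counts in CTL and 11937, 13448 and 10887 in TGF-β1 cultures. Each treated value lay above the CTL value of its own number, but the groups overlapped and the log2 fold change was 0.08 (95% interval -0.17 to 0.32, adjusted p = 0.67). Tead4 (chromosome 6, 128224288 to 128300823, minus strand) had 298, 238 and 242 in CTL and 167, 132 and 161 in TGF-β1 cultures. Every treated culture was below every CTL culture. The log2 fold change was -0.76 ± 0.15 (SE; adjusted p = 0.0261, and 0.000996 with the block). Tead4 still passed when CTL replicate 2 was left out (adjusted p = 0.0476) and in none of the other 5 fits without 1 culture, where the adjusted p reached 0.11 and the log2 fold change stayed between -0.83 and -0.65. Per kb and within a library, Tead4 stood at -3.55 ± 0.25 against Tead1 on the log2 scale in CTL and at -4.39 ± 0.32 in TGF-β1 (SD, n = 3). This ratio was lower in each of the 3 treated cultures than in the CTL culture of its number, and the exact permutation p was 0.1, the smallest that 3 against 3 allows (0.2 after adjustment over the 4 ratios compared).

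The remaining TEAD factors and the Vgll cofactors, which compete with YAP and TAZ for TEAD, differed in direction. Tead2 rose, from 3101, 3114 and 3425 normalized counts in CTL to 4183, 4018 and 4077 in TGF-β1 cultures, by 0.35 ± 0.05 (SE) on the log2 scale (adjusted p = 0.0142). Tead2 and Tead4 thus moved in opposite directions, from a CTL level per kb of 671 for Tead2 and 72.2 for Tead4. Tead3 had a log2 fold change of -0.02 (adjusted p = 0.922). Vgll3 had 1597, 2603 and 1477 in CTL and 3716, 6213 and 2858 in TGF-β1 cultures. Its groups did not overlap and the culture numbered 2 was highest in each. The log2 fold change of Vgll3 was 1.17 ± 0.35 (SE), with an adjusted p of 0.0872, of 1.6e-05 with the block and of 0.0093 without the cultures numbered 2. Vgll4, a cofactor that restrains TEAD, had a log2 fold change of -0.25 (adjusted p = 0.0886, and 0.00373 with the block). Vgll1 had no read in any culture and Vgll2 had 2 reads in all, so neither was tested. In this list 1 of the 6 genes tested rose and 1 fell (11.7% of all genes passed), with the block 2 rose and 2 fell (34.2% of all genes), and without the cultures numbered 2, 2 rose and 1 fell (14.9% of all genes). Without 1 culture at a time Tead2 passed in 4 of 6 fits and did not when CTL replicate 1 or TGF-β1 replicate 1 was left out (highest adjusted p 0.0857).

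**Figure D2:**
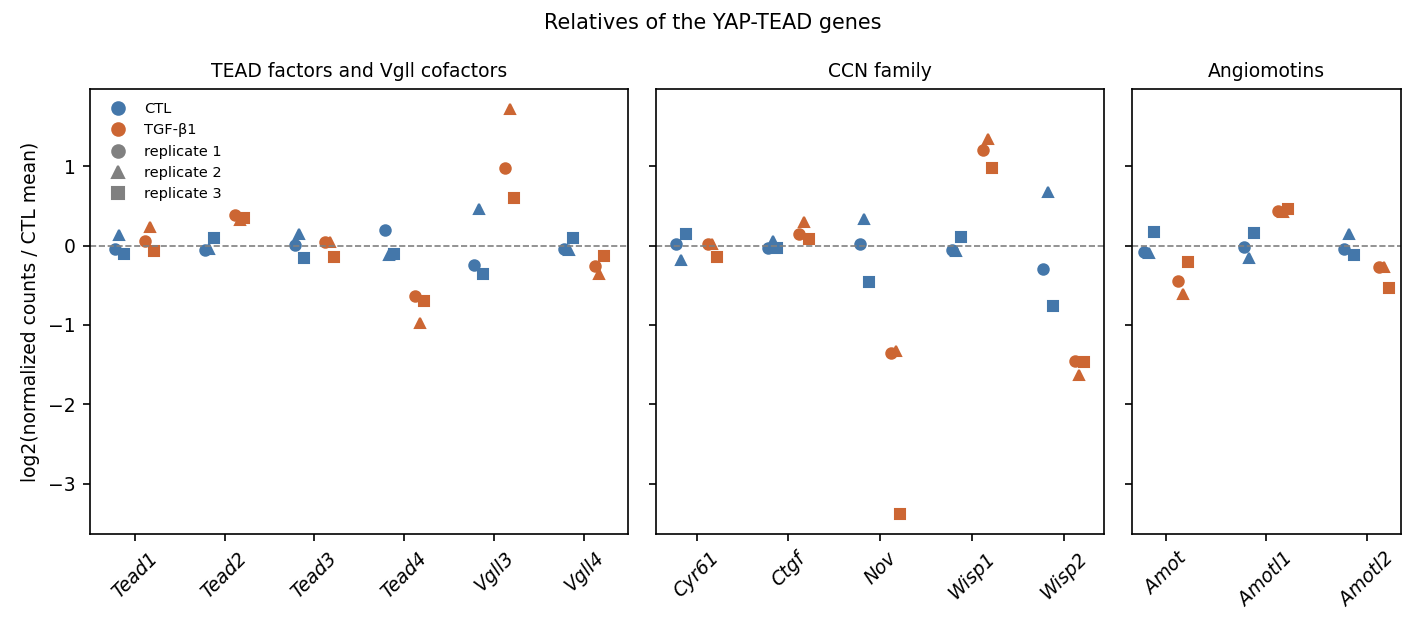
Normalized counts of TEAD factors and Vgll cofactors, CCN family genes and angiomotins in each culture, as log2 of the ratio to the CTL mean of the gene (dashed line at 0). Tead2, Vgll3, Ctgf, Wisp1 and Amotl1 lay above the CTL cultures in all 3 TGF-β1 cultures, and Tead4, Vgll4, Nov, Wisp2, Amot and Amotl2 lay below. Of all genes tested, 35.1% had no overlap between the groups. Only Tead2, Wisp1, Amotl1 and Tead4 of these genes passed the edgeR test without the block.

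None of the 3 customary readouts passed the edgeR test without the block. The values of Ctgf and Ankrd1 lay a little higher with TGF-β1 without overlap, while those of Cyr61 overlapped. Of all genes tested, 35.1% had no overlap between the groups. Ctgf (chromosome 10, 24595442 to 24598683, plus strand) encodes a secreted matricellular protein. Its normalized counts were 96544, 102626 and 95813 in CTL and 109165, 120542 and 104223 in TGF-β1 cultures, with no overlap. The log2 fold change was 0.18 ± 0.08 (SE; 95% interval -0.02 to 0.38), with an adjusted p of 0.22 that became 0.0438 with the block. Without TGF-β1 replicate 2 the log2 fold change of Ctgf was 0.11, and with scaling by library size only it was 0.10, neither past the threshold. The annotation places an antisense gene, Gm15270, over 665 bases (23.2%) of the Ctgf exons. The strand setting of the counting is not given in the sources used here, so reads there cannot be assigned with certainty. Ankrd1 (chromosome 19, 36111961 to 36120099, minus strand) encodes an ankyrin repeat cofactor of muscle and stressed cells. Its normalized counts were 31222, 26035 and 31381 in CTL and 40517, 35269 and 35109.9 in TGF-β1 cultures, each above every CTL value. Ankrd1 had a log2 fold change of 0.32 ± 0.10 (SE; adjusted p = 0.0971). Ankrd1 passed with the block (adjusted p = 0.00589) and with DESeq2 (adjusted p = 0.0416).

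Cyr61 (chromosome 3, 145646976 to 145649981, minus strand), the other CCN readout, had 27892, 24193 and 30372 normalized counts in CTL and 27744, 27755 and 24769 in TGF-β1 cultures. The groups overlapped throughout. Its log2 fold change was -0.04 (95% interval -0.28 to 0.20, edgeR adjusted p = 0.839), and the sign turned with the cultures included, from -0.15 without the cultures numbered 2 to 0.09 without those numbered 3. The ratio of Ctgf to Cyr61 per kb within a library was 1.34 ± 0.22 in CTL and 1.55 ± 0.07 in TGF-β1 on the log2 scale (SD, n = 3; exact permutation p = 0.3). The ratio was higher with TGF-β1 in each of the 3 pairs of equal number, by 0.03 to 0.42.

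Of the other CCN family genes only Wisp1 passed without the block. Wisp1, a secreted CCN protein of the Wnt field, rose from 8319, 8227 and 9303 to 19776, 21864 and 16997 normalized counts. The change of Wisp1 was 1.18 ± 0.11 (SE) on the log2 scale (adjusted p = 0.00379, edgeR), and it passed in all 6 fits without 1 culture. Nov and Wisp2 were scarce. Nov had 39.6, 49.0 and 28.4 in CTL and 15.2, 15.5 and 3.76 in TGF-β1 cultures, with a log2 fold change of -1.77 (adjusted p = 0.0644, and 0.00261 with the block). Wisp2 had 67.6, 133 and 49.1 in CTL and 30.5, 26.9 and 30.0 in TGF-β1 cultures, with a log2 fold change of -1.51 (adjusted p = 0.0589, and 0.00762 with the block). Wisp3 had 4 reads in all and was not tested. In the family, 1 of the 5 genes tested rose and none fell in the test without the block (11.7% of all genes passed). With the block 2 rose and 2 fell (34.2% of all genes), and without the cultures numbered 2, 1 rose and 0 fell (14.9%). By unadjusted p under 0.05, 1 was higher and 2 were lower (2092 and 2437 of all 15862 genes). DESeq2 called 1 higher and 2 lower (1110 and 1501 of all genes). The relatives of Ankrd1 were nearly silent, with 24 reads of Ankrd2 in all cultures together and a log2 fold change of -0.07 for Ankrd23 (adjusted p = 0.923).

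Of the 2 feedback inhibitors among the members, Lats2 fell and Amotl2 passed only in some fits. Lats2 (chromosome 14, 57689662 to 57758388, minus strand), a kinase that phosphorylates YAP and TAZ, had 6391, 6345 and 6830.2 normalized counts in CTL and 5717, 5219.5 and 5325 in TGF-β1 cultures. No value overlapped. Lats2 changed by -0.27 ± 0.06 on the log2 scale (SE; adjusted p = 0.0347, and 0.00457 with the block). Lats2 did not pass in any of the 6 fits without 1 culture, in which its adjusted p was 0.0634 to 0.127 and its log2 fold change -0.30 to -0.23. A protein-coding gene on the same strand, Gm49361, shares 2955 bases (42.4%) of the Lats2 exons in GENCODE M21 and is not among the genes counted, so reads from it on those bases would stand in the Lats2 count. The paralog Lats1 served as a comparison within each library. Lats2 stood above Lats1 by 0.32 ± 0.07 on the log2 scale per kb in CTL and at -0.03 ± 0.06 in TGF-β1 (SD, n = 3), lower in all 3 pairs, with an exact permutation p of 0.1, the smallest possible (0.2 after adjustment).

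Amotl2 (chromosome 9, 102716672 to 102733418, plus strand), an angiomotin that binds YAP and TAZ at junctions and actin, had 26571, 30098 and 25180.4 normalized counts in CTL and 22661, 22674 and 18775 in TGF-β1 cultures. Every treated value was below every CTL value. The log2 fold change was -0.35 ± 0.11 (SE; adjusted p = 0.0854), and Amotl2 passed with the block (adjusted p = 0.00213), with DESeq2 (adjusted p = 0.0302) and with scaling by library size only (adjusted p = 0.0431). The 3 angiomotins differed in direction. Amotl1 rose from 13137, 11892 and 14796 to 17977, 17791 and 18272, by 0.44 ± 0.09 (SE) on the log2 scale (adjusted p = 0.028). Amot had 13217, 13094 and 15707 in CTL and 10305, 9216 and 12078 in TGF-β1 cultures, with a log2 fold change of -0.41 (adjusted p = 0.0819, and 0.000524 with the block). Amotl1 passed in 1 of the 6 fits without 1 culture, that without CTL replicate 3, and its adjusted p reached 0.129 in the others.

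Ajuba (chromosome 14, 54567472 to 54577558, minus strand) had 8341, 7646 and 8456 normalized counts in CTL and 8030, 7411 and 7362 in TGF-β1 cultures, with overlap, and a log2 fold change of -0.10 (95% interval -0.25 to 0.05, adjusted p = 0.354). None of the 6 Ajuba and zyxin LIM proteins, adaptors of junctions and focal adhesions, passed the edgeR test. Of all genes tested 11.7% passed it. At an unadjusted p under 0.05, 2 were higher and 2 lower (2092 and 2437 of all 15862 genes), and DESeq2 called 1 higher (1110 of all genes). With the block 4 passed (34.2% of all genes). Without the cultures numbered 2, Zyx (adjusted p = 0.0209) and Lpp (adjusted p = 0.0485) were higher, when 14.9% of all genes passed. Zyx, whose groups overlapped (14720.3, 18814 and 14140.2 in CTL; 21538, 27547 and 18521 in TGF-β1), had a log2 fold change of 0.50 with an adjusted p of 0.128 and of 0.000306 with the block, and Lpp one of 0.18 (adjusted p = 0.105, and 0.0226 with the block). Limd1 and Trip6 had -0.22 and -0.19 (adjusted p of 0.0676 and 0.0545, and of 0.00772 and 0.0124 with the block). Wtip had -0.08 (adjusted p = 0.525).

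**Figure D3:**
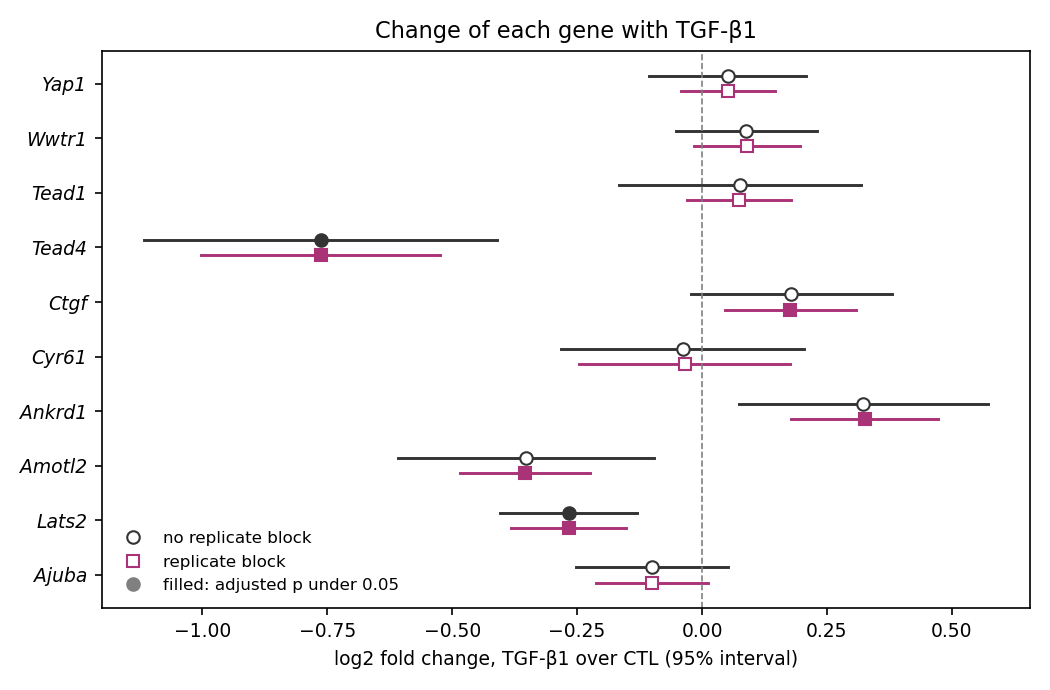
Log2 fold change of each YAP-TEAD gene with TGF-β1 and its 95% interval, from edgeR without the replicate block (circles) and with it (squares), filled where the adjusted p was under 0.05. Tead4 and Lats2 were filled in both fits, and Ctgf, Ankrd1 and Amotl2 only with the block.

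Of 28 Hippo kinase core and upstream input genes, all tested, 1 rose and 3 fell, beside the 11.7% of all genes that passed. With the block 3 rose and 7 fell, beside 34.2% of all genes, so that both counts lay near the background. Without the cultures numbered 2, 4 rose and 3 fell (14.9% of all genes). The list's median log2 fold change was 0.0089. Besides Amotl1 and Lats2, the genes that passed were Wwc1 and Sav1. Wwc1 (KIBRA), an upstream activator of LATS, fell from 21402, 17078 and 22441 to 12232, 9049 and 12506 normalized counts, a change of -0.85 ± 0.16 (SE) on the log2 scale (adjusted p = 0.0261). Sav1, the scaffold that joins the kinases STK3 and STK4 to LATS, fell from 3441, 3601 and 2887 to 2313, 2279 and 2352, a change of -0.52 ± 0.09 (SE; adjusted p = 0.0175). Wwc1 passed in 2 and Sav1 in 4 of the 6 fits without 1 culture, with adjusted p up to 0.112 and 0.0894, and neither passed without CTL replicate 1 or without TGF-β1 replicate 1. Wwc1 also did not pass without CTL replicate 3 or TGF-β1 replicate 3.

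Of 22 conserved YAP targets, all tested, 4 rose and 2 fell, with a median log2 fold change of 0.011, when 11.7% of all genes passed. With the block 8 rose and 7 fell (34.2% of all genes passed), and without the cultures numbered 2, 5 rose and 3 fell (14.9%). The list shares Ctgf, Cyr61, Ankrd1, Amotl2 and Lats2 with the members, and without these 5 it held 17 genes, of which 4 rose and 1 fell. Gadd45a, a stress and growth arrest gene, rose from 2032, 2058 and 1909 to 4539, 4469 and 4697 normalized counts, by 1.19 ± 0.05 (SE) on the log2 scale (adjusted p = 0.000816). Foxf2, a forkhead factor of mesenchyme, rose from 48.3, 57.7 and 51.2 to 103, 151 and 94.8, by 1.15 ± 0.22 (adjusted p = 0.0267). Dock5, a Rac exchange factor, rose by 0.97 ± 0.17 (adjusted p = 0.021), and its highest value in each group, 2184 in CTL and 4774 in TGF-β1, was that of the culture numbered 2. Rbms3, an RNA-binding protein, rose by 0.33 ± 0.06 (adjusted p = 0.0217). Asap1, an Arf GTPase-activating protein, fell by 0.26 on the log2 scale (SE 0.05, adjusted p = 0.0233), and Lats2 is the other gene of this list that fell. Gadd45a passed in all 6 fits without 1 culture. Dock5 passed in 3 (without CTL replicate 2, TGF-β1 replicate 2 or TGF-β1 replicate 3), Foxf2 in 2 (without TGF-β1 replicate 2 or 3), Rbms3 in 1 (without CTL replicate 2) and Asap1 in 1 (without TGF-β1 replicate 2). The highest adjusted p in the fits in which they did not pass was 0.101 for Dock5, 0.122 for Foxf2, 0.111 for Rbms3 and 0.109 for Asap1.

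**Figure D4:**
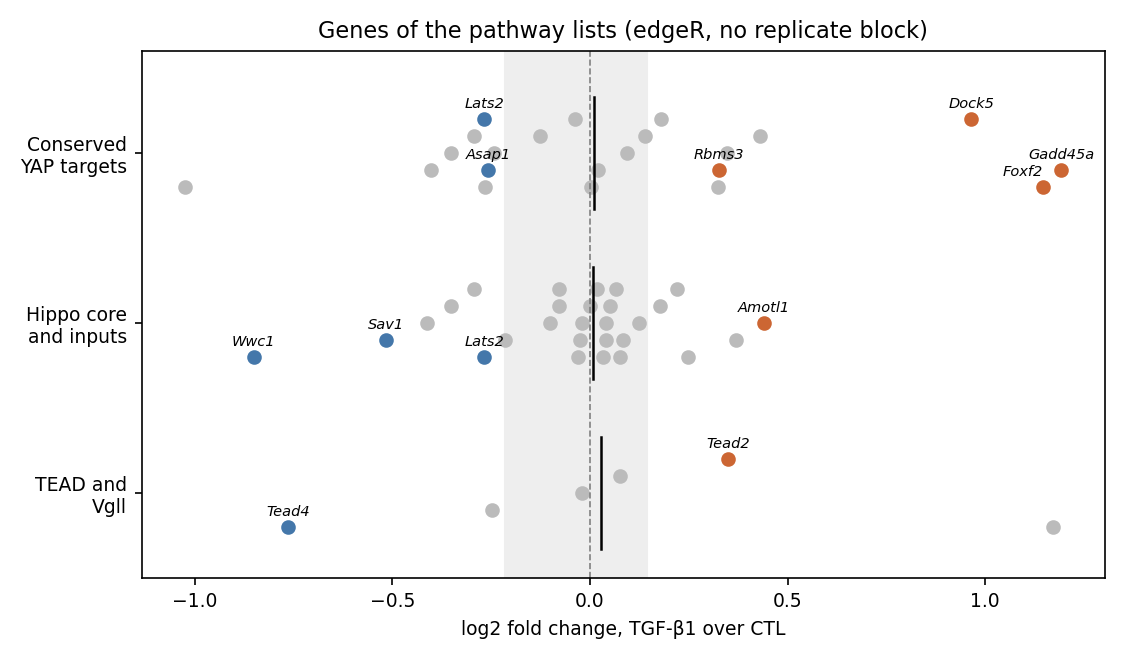
Log2 fold changes of the genes of 3 pathway lists (edgeR without the replicate block), orange where higher and blue where lower at an adjusted p under 0.05, grey otherwise, with a black bar at each list's median. The grey band runs from the lower to the upper quartile of all 15862 genes, -0.21 to 0.14, and the medians of the lists lie between 0.0089 and 0.028.

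The genes whose pattern over the 6 cultures was most like that of each readout were looked up among 10900 genes, as Pearson's r of log2 normalized counts. These are descriptions over 6 cultures that share treatment and replicate number. For Ctgf they were Plekhh2 (r = 0.999), Map7d1 (0.998) and Picalm (0.998). For Ankrd1 they were Otud5 (0.996), Rnf6 (0.989) and Pik3cb (0.982). For Cyr61 they were Nsun6 (0.954), Edn1 (0.944) and Nuak2 (0.932), the last a kinase gene on the list of conserved YAP targets.

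Cell type markers differed between treatments as well as between replicate numbers. Of 6 proximal tubule markers, 3 were tested and 2, Lrp2 and Aqp1, fell. Among all genes tested 6.69% were lower and 5.00% higher without the block, and 19.1% and 15.1% with it. Cubn did not pass (log2 fold change 0.09, adjusted p = 0.698), and Slc34a1, Slc5a2 and Slc22a6 had 29, 8 and 22 reads in all and were not tested. The summed level of the list was 2438 to 2933 normalized counts in CTL and 1121 to 1555 in TGF-β1 cultures. Of the 6 tubule epithelium markers, Cdh16 and Pax8 fell, and with the block Epcam (adjusted p = 0.0376) and Cdh1 (adjusted p = 0.0194) were lower too. Krt8 and Krt18 went the other way without passing (log2 fold changes of 0.06 and 0.12, and of 0.20 and 0.23 with the block). The distal and collecting duct markers (Umod, Slc12a1, Slc12a3, Aqp2, Scnn1g and Calb1) summed to 53.8 to 149 in CTL and 51.8 to 75.2 in TGF-β1, and of the 3 tested Umod and Scnn1g were lower with the block (adjusted p of 0.0446 and 0.00845) and none without it, where 1 was lower at an unadjusted p under 0.05 and 1 by DESeq2. Slc12a1, also tested, had a log2 fold change of 0.16 (edgeR adjusted p = 0.818). None of the 5 fibroblast markers tested passed without the block (edgeR), and 0 did so at an unadjusted p under 0.05 or by DESeq2. With the block Pdgfrb and Dcn were lower (log2 fold changes of -0.86 and -1.21, adjusted p of 0.000431 and 0.0256) and Col1a1 was higher (0.37, adjusted p = 0.00628). The sum of the fibroblast list was 25371 to 66981 in CTL and 24152 to 76047 in TGF-β1. The part of these shifts in the falls of Tead4 and Lats2, or in the lower Amotl2 and Wwc1, was not tested. In bulk cultures fewer cells of a type and less RNA per cell cannot be told apart. Across replicate numbers, Yap1, Tead1, Ctgf and Amotl2 were highest, and Tead4 and Lats2 lowest, in the culture numbered 2 of both groups, where the fibroblast sum was highest. Lats2 differed there from the other cultures by only -0.06 in CTL and -0.08 in TGF-β1 on the log2 scale. Wwtr1, Cyr61, Ankrd1 and Ajuba did not keep the same place in both groups, and Cyr61 was lowest in CTL replicate 2 but highest in TGF-β1 replicate 2. The share of all genes with such a pattern was not counted. Tead1 in the culture numbered 2 exceeded the mean of the other cultures by 0.20 in CTL and 0.24 in TGF-β1 on the log2 scale, more than its log2 fold change of 0.08 with treatment.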

How the data were processed

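RNA sequencing of 3 CTL and 3 TGF-β1 RTEC cultures was analysed. The authors isolated poly(A) mRNA, trimmed single-end reads with Trim Galore, aligned them to GRCm38 with STAR 2.4.1d and deposited HTSeq 0.6.1 read counts per gene, without normalization. The annotation release and strand setting are not given in the sources used here. Rows that name no gene held 25.4 to 25.9% of reads and were left out. 3 reads correspond to 0.0878 to 0.106 CPM, and this floor covers counting error only.

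Counts were tested with edgeR 4.0.16 (R 4.3.3; filterByExpr, TMM, robust quasi-likelihood, 2-sided) with Benjamini-Hochberg adjustment over 15862 genes, threshold 0.05. Standard errors come from the F statistic. Normalized counts are TMM-scaled to the geometric mean library size, and exon lengths come from GENCODE M21, which matched 46005 of 46517 gene identifiers. Ratios used 2-sided exact permutation tests. Code was tested on simulated data. No pair of libraries agreed within sampling noise (chi-square per degree of freedom at least 6.70).

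The labels number the cultures 1 to 3 in both groups. Deviations from the group means correlated at 0.308, 0.663 and 0.546 between equal numbers and at -0.593 to 0.198 between others. Cultures of equal number were thus the most alike, but numbers 1 and 3 were set apart only weakly (0.198 and 0.133 between them). The labels do not state that the numbers are pairs. The block is an alternative here, as the study compares groups without pairing. Other alternatives were DESeq2 1.42.0, RLE size factors, library size only, no filter beyond 1 count, and leaving out cultures.

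The members and lists were chosen with earlier results of these data known. The genes named are the members, every gene of a list of at most 8, of longer lists up to 8 genes past the threshold, and the 3 genes most like Ctgf, Cyr61 and Ankrd1 with a mean of at least 5 CPM. The study's mouse models and human kidneys were not analysed here. Some genes of the response and marker lists are not reported here.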

Additional observations from a re-analysis of the deposited data

How the results depend on the processing

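With the replicate block 2388 genes were higher and 3037 lower (793 and 1061 without it). Of the members 2 were then higher and 3 lower, of the TEAD and Vgll list 2 and 2, of the Hippo list 3 and 7, and of the conserved YAP targets 8 and 7. DESeq2 called 1110 of all genes higher and 1501 lower. Of the members it called 1 higher and 3 lower, and of the TEAD and Vgll list 2 and 1. Of the Hippo list it called 2 higher and 5 lower, and of the conserved YAP targets 6 and 3. Scaling by library size only gave 508 higher and 1467 lower genes, with 1 Hippo gene higher and 5 lower, and 4 conserved YAP targets higher and 4 lower. It shifted the median of all genes by -0.07 on the log2 scale, turned Yap1 to -0.023 and put Wwtr1 in TGF-β1 at 2352 normalized counts per kb against 2414. The cause of these differences was not tested.

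Over the 9 fits with cultures left out, which hold fewer samples, 0 to 1084 genes were higher and 0 to 1290 lower. The 0 arose without both cultures numbered 1, where no gene passed, so that fit says nothing of single genes. Members called lower were 2 without the cultures numbered 2, 1 without CTL replicate 2 and 0 in every other of these fits, and none was higher. The TEAD and Vgll list held 0 to 2 higher and 0 to 1 lower, the Hippo list 0 to 4 and 0 to 3, and the conserved YAP targets 0 to 5 and 0 to 3. Log2 fold changes ranged from -0.149 to 0.093 for Cyr61, -0.012 to 0.148 for Tead1 and -0.0012 to 0.10 for Yap1, crossing 0. Of 140 member values under alternatives, 113 kept direction and side of the threshold, 15 kept direction but no longer passed, 6 passed newly and 6 changed sign. All 15 that no longer passed were values of Tead4 and Lats2, the only members called in the main fit. Tead4 passed in 2 and Lats2 in 1 of the 9 fits with cultures left out. The levels of Nov, Wisp2 and Foxf2 rest on few reads, and 3 cultures a group limit how small a change can be told from 0.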
